A study of Mus musculus with 6 samples.

Results

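The amylase genes of the mouse lie in a cluster on chromosome 3, and the 6 copies described here are Amy1, Amy2a2, Amy2a3, Amy2a4, Amy2a5 and Amy2b. They were chosen by symbol, not by their values, and are 6 of the 23099 gene symbols measured in the pancreas of wild-type (WT) and Ela1-Myc mice. Each symbol has a single row in each library. Alpha-amylase is a secreted enzyme that cuts the internal bonds of starch and glycogen. Acinar cells of the pancreas store it in zymogen granules with the proteases, lipases and nucleases of pancreatic juice and release it after a meal. Amy1 is the copy known for expression in salivary gland and liver, the Amy2 copies are the pancreatic ones, and pancreatic amylase is known to depend on insulin and on starch in the diet.

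The study compared whole pancreas from 8-week-old animals in 2 groups, 3 WT libraries and 3 Ela1-Myc libraries, by stranded sequencing of polyadenylated RNA. In the Ela1-Myc line the transcription factor Myc, which drives growth and division, is driven by the elastase 1 promoter, which acinar cells use. Strain, sex and any treatment are not given in the sources used here. No label says that each library is its own animal, and a p-value here reflects only how these libraries vary, which may be technical. The question that the comparison addresses is how the adult pancreas differs when acinar cells keep Myc. In whole tissue, fewer cells of a type and less RNA per cell cannot be told apart.

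Values are adjusted FPKM (a fragment count scaled by transcript length and library size) as the authors deposited them, divided by 100000, and are called levels in what follows. The depth of each library is unknown. The labels record that synthetic spike-in RNA was added to equal amounts of total RNA, but not whether the adjustment rests on it. Myc stood at 52.0, 34.4 and 34.2 in Ela1-Myc replicates 1 to 3, at 4.10 in WT replicate 2 and at a listed 0 in WT replicates 1 and 3. A listed 0 is no evidence of absence in these files: Gapdh, a glycolytic gene that every cell uses, is also at 0 in WT replicates 1 and 3. Between 592 and 1426 of the 8802 tested genes were at 0 in a WT library and between 0 and 29 in an Ela1-Myc library. The acinar markers Cpa1, Cela1, Prss2, Ctrb1, Pnlip, Ptf1a, Rbpjl and Bhlha15 were above 0 in all 6 libraries. The RNA integrity number was 7.3, 7.3 and 7.1 in WT and 8.8, 7.2 and 8.3 in Ela1-Myc, so that 5 of the 6 lie under the minimum that the protocol in the labels states.

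The Amy2 copies differ little in sequence, which sets how far their values can be read one by one. All 6 lie on the minus strand of chromosome 3 (GRCm38). In order along the chromosome the files place Amy2b at 113147656 to 113156727, Amy2a5 at 113249178 to 113258699, Amy2a4 at 113279837 to 113291449, Amy2a3 at 113312449 to 113324052, Amy2a2 at 113345049 to 113356658 and Amy1 at 113555952 to 113577750. These spans equal those of RefSeq for all 6. GENCODE M21 gives 10 exons to each Amy2 copy and 11 to the Amy1 model compared here, and it lists Amy2b as an unprocessed pseudogene where RefSeq lists a protein-coding gene. Over the coding sequence of 1527 bases, Amy2a2, Amy2a3, Amy2a4 and Amy2a5 were identical to one another, with 0 substitutions in every pair. Amy2b aligned to them with 27 substitutions and 3 gap bases (98.0% identity) and Amy1 with 128 substitutions and 31 gap bases (89.7% identity). The stretch shown here, coding bases 178 to 252 counted from the A of the start codon, is the 75-base window in which Amy2b differs most from Amy2a5, and it shows what a read can and cannot tell apart. Capitals mark bases that differ from Amy2a5, and Amy2a2, Amy2a3 and Amy2a4 have the letters of Amy2a5.
Amy2a5: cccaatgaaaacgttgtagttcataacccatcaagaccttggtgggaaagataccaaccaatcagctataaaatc
Amy2b: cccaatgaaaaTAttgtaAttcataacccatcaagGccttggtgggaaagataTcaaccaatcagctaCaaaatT
Amy1: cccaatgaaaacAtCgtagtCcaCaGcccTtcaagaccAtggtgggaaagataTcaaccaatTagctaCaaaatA
Amy2b differed at 7 and Amy1 at 11 of these 75 bases.

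The share of coding windows found in no GENCODE transcript of another gene was computed for each copy at 36, 50 and 75 bases, because the sources used here give no read length. It was 0% for Amy2a2, Amy2a3, Amy2a4 and Amy2a5 at each of these lengths. For Amy2b it was 44.7%, 59.5% and 78.4%, and for Amy1 91.3%, 96.5% and 100%. Beyond the coding part, the GENCODE models of Amy2a2, Amy2a3 and Amy2a4 (3717 bases each) were identical to one another and differed from that of Amy2a5 by 53 substitutions and 8 gap bases. The gene models in the files differ more than that. The Amy2a5 row spans 9522 bases and ends on the 3′ side at 113249178, where the GENCODE model runs on to 113247178. The rows of Amy2a2, Amy2a3 and Amy2a4 span 11610, 11604 and 11613 bases and reach the GENCODE 3′ end. The sources used here do not say how reads that fit several copies were shared out. The levels of Amy2a2 to Amy2a5 are therefore given as deposited and also as a sum.

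**Figure D1:**
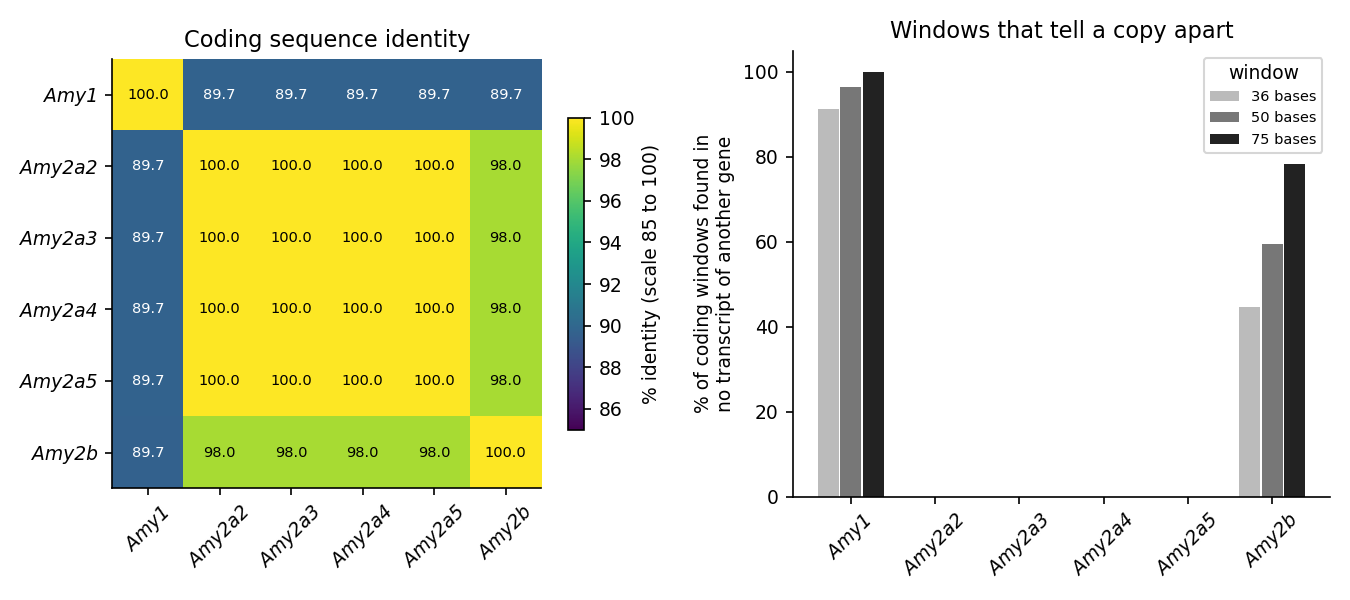
Left, percent identity of the coding sequences for every pair of copies (colour scale from 85 to 100%). Right, percent of coding windows of 36, 50 or 75 bases that occur in no GENCODE M21 transcript of another gene; the 4 Amy2a copies have none, Amy2b 44.7 to 78.4% and Amy1 91.3 to 100%.

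Upstream sequence is shown for 1 copy that was high in Ela1-Myc, Amy2b, and 1 that was low, Amy2a4. Their RefSeq starts are not set at matching places, so the lines are not aligned to each other. They do not show how far the start regions of these copies differ. Each line gives the 150 bases before the RefSeq start site on the minus strand, from RefSeq's GRCm38.p6 table, with matches to the E-box CANNTG and to TATAAA in capitals. Amy2b is chr3:113156728-113156877 and Amy2a4 is chr3:113291450-113291599.
Amy2b: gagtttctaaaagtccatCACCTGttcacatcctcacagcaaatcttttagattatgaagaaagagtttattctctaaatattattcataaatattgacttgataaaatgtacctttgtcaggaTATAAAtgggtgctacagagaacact
Amy2a4: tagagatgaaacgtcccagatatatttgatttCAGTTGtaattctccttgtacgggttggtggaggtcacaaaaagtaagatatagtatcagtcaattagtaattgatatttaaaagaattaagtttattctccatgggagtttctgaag
Amy2b had the E-box CACCTG starting at position -132 and TATAAA at -26. The Amy2a5 window was laid out alike, with CAGCTG at -132 and TATAAA at -30, and the RefSeq windows of the pair (250 bases before to 50 after the start) were 71.4% identical. The RefSeq starts of Amy2a2, Amy2a3 and Amy2a4 are set further upstream on shared sequence. The last 162 bases of their 300-base windows occur unchanged in the Amy2a5 window, and the same CAGCTG falls at position 7 after their start, with no TATAAA in the window. The GENCODE model of Amy2a5 also starts upstream of the RefSeq one, at 113258837.

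Each motif was searched on both strands in the 7 windows of the 6 copies (Amy1 has 2 start sites) and in all 32851 promoter windows of the table. CACGTG, the E-box that MYC with its partner MAX is known to prefer, was in 0 of the 7 windows and in 7.15% of all. CANNTG, which includes every other E-box searched, was in 72.3% of all windows. The share was 16.3% for the E-box CAGCTG and 20.2% for the E-box CACCTG. For TATAAA it was 13.6%. TTTCCC, the TC-box of the motif that the acinar PTF1 complex binds, was at position 37 after the start of Amy2a5 and of Amy2b and in 25.2% of all windows. These matches describe letters in a window, not sites in use.

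Amy2a5 and Amy2b were the copies that stood far higher in the Ela1-Myc libraries, Amy1 was the leading copy in each WT library, and Amy2a2, Amy2a3 and Amy2a4 were low throughout and nearly equal to one another. Amy2a5 had a level of 1665, 1421 and 1278.5 in Ela1-Myc replicates 1 to 3 and of 70.4 in WT replicate 2, with a listed 0 in the 2 other WT libraries, replicates 1 and 3. Amy2b had a level of 332.7, 296.5 and 283.9 in Ela1-Myc and of 8.44 in WT replicate 2, and the same pair of WT libraries listed it at 0. For both copies the groups did not overlap, with every Ela1-Myc library the higher (exact two-sided permutation p = 0.1 for each, the smallest that 3 against 3 libraries can give). The listed zeros are taken as measured values in this. Of all tested genes, 75.3% likewise had every Ela1-Myc library above every WT library as deposited. Against WT replicate 2 alone, where both were above 0, the Ela1-Myc mean was 20.7 times as high for Amy2a5 and 36.1 times as high for Amy2b, a ratio to a single library with no test. After median-of-ratios scaling, described with the tests across all genes, these ratios were 10.6 and 18.5.

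Amy1 had a level of 17.5, 98.2 and 43.9 in WT replicates 1 to 3 and of 24.4, 16.8 and 24.4 in Ela1-Myc replicates 1 to 3. The group means were 53.2 ± 41.2 (SD, n = 3) in WT against 21.9 ± 4.42 (SD, n = 3) in Ela1-Myc, and the groups overlapped, with WT replicate 1 inside the Ela1-Myc range (exact two-sided permutation p = 0.3). Amy2a4 had a level of 4.53, 18.9 and 2.87 in WT and of 6.72, 4.48 and 7.08 in Ela1-Myc, again with overlapping groups (exact two-sided permutation p = 0.9). Amy2a2 and Amy2a3 had almost the same levels as Amy2a4 in each library: the highest of the 3 exceeded the lowest by 0.0185 to 0.191% in WT and by 0.0522 to 0.598% in Ela1-Myc. WT replicate 2 was the highest library for Amy1 and for each of these 3 copies, and it also had the highest sum of the other digestive enzymes, 1744400 against 374570 to 1060100 in the other libraries.

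**Figure D2:**
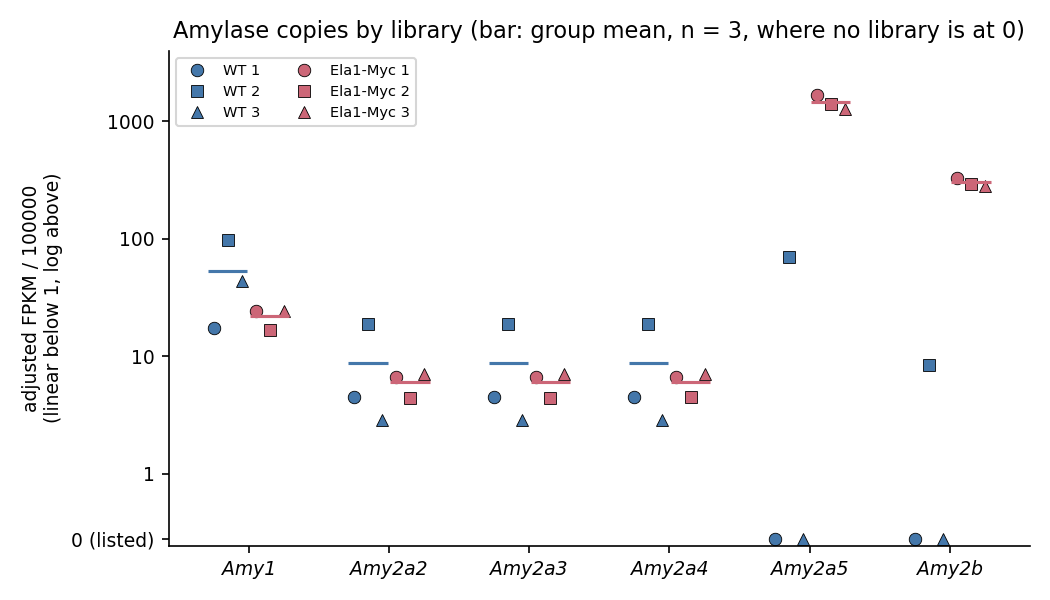
Level of each amylase copy (adjusted FPKM divided by 100000; linear below 1 and logarithmic above) in the 3 WT and 3 Ela1-Myc libraries; bars are group means of 3, drawn only where no library of the group is listed at 0. Amy2a5 and Amy2b lie at 283.9 to 1665 in Ela1-Myc and at 0 to 70.4 in WT, while the groups overlap for the other 4 copies.

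The order of the copies within a library was the same in all 3 Ela1-Myc libraries, Amy2a5 above Amy2b above Amy1 above the remaining 3. Amy2a5 was 5.003, 4.79 and 4.50 times Amy2b in Ela1-Myc replicates 1 to 3, against 8.34 times in WT replicate 2. Ratios to the lower copies varied more: Amy2a5 was 247.5, 317.7 and 180.3 times the mean of Amy2a2 to Amy2a4 in Ela1-Myc, against 3.71 times in WT replicate 2, although the coding sequences of these 4 copies are identical. Amy1 was 1.21, 1.25 and 1.15 times the sum of Amy2a2 to Amy2a4 in Ela1-Myc and 1.28, 1.73 and 5.10 times in WT, so that the groups did not overlap in this ratio (exact two-sided permutation p = 0.1). The gap of 1.25 to 1.28 between the groups was small beside the spread within WT.

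The make-up of the amylase sum separated the groups, and it does not change when a library is scaled as a whole. Amy2a5 took 81.5, 81.3 and 79.5% of the sum in Ela1-Myc replicates 1 to 3 and 30.1% in WT replicate 2. Amy2b took 16.3, 17.0 and 17.7% in Ela1-Myc and 3.61% in WT replicate 2. Amy1 took 56.2, 42.0 and 83.6% in WT and 1.20, 0.960 and 1.52% in Ela1-Myc. Taken as a sum of the 4 copies with identical coding sequence, Amy2a2 to Amy2a5 made up 43.8, 54.4 and 16.4% in WT and 82.5, 82.1 and 80.8% in Ela1-Myc. Each of these shares had no overlap between the groups (exact two-sided permutation p = 0.1 for each of the 4), and the shares in WT replicates 1 and 3 take the listed zeros as measured values.

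**Figure D3:**
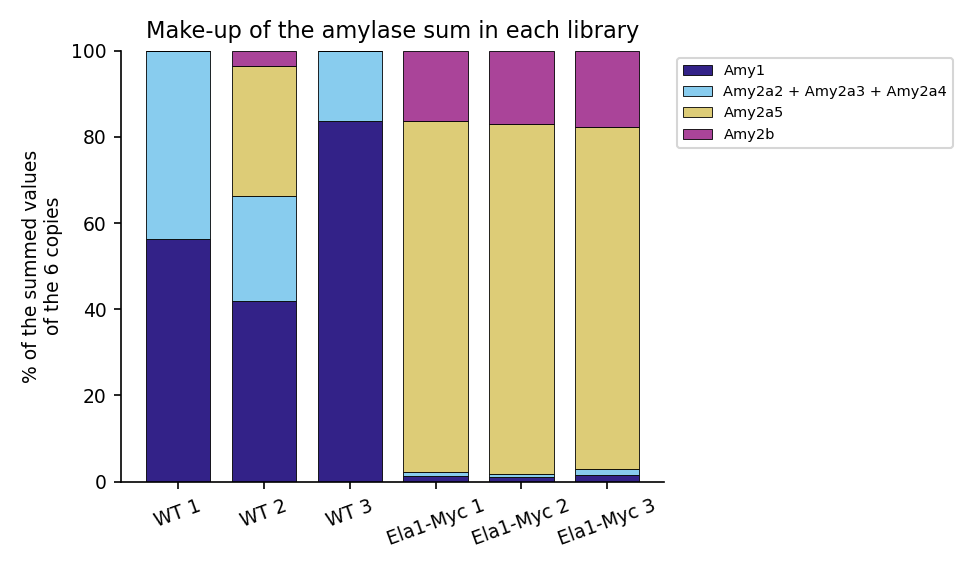
Percent of the summed levels of the 6 copies taken by Amy1, by Amy2a2 to Amy2a4 together, by Amy2a5 and by Amy2b, stacked to 100% for each library. Amy2a5 and Amy2b fill most of the bar in the Ela1-Myc libraries, Amy1 and Amy2a2 to Amy2a4 fill all of it in WT replicates 1 and 3, and WT replicate 2 holds a part of each.

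As a sum, the 6 copies stood at 31.1, 233.8 and 52.5 in WT replicates 1 to 3 and at 2042, 1748 and 1608 in Ela1-Myc. The lowest Ela1-Myc library was above the highest WT library, and the group means of log2(sum + 1) differed by 4.60 (exact two-sided permutation p = 0.1). The sum of Amy2a2 to Amy2a5 stood at 13.6, 127.2 and 8.61 in WT, against 1685, 1435 and 1300 in Ela1-Myc. As a share of all symbols the 6 copies took 0.00464, 0.0120 and 0.00445% in WT and 0.188, 0.278 and 0.212% in Ela1-Myc (by an exact two-sided permutation test, p = 0.1). In WT replicates 1 and 3 these sums and shares take the listed zeros of Amy2a5 and Amy2b as measured values. How reads that fit several copies were shared out is unknown. By these listed values, amylase was a small part of the measured enzymes in both groups. Chymotrypsinogen Ctrb1, for example, had a level of 107100 to 308960 in WT and of 80061 to 194670 in Ela1-Myc. By level, Amy1 ranked between 230 and 369 among all symbols in the WT libraries and between 1108 and 1511 in Ela1-Myc, and Amy2a5 ranked 49, 46 and 44 in Ela1-Myc.

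Across all genes, 2 of the 6 copies, Amy2a5 and Amy2b, were called higher in Ela1-Myc and 0 were called lower by limma at a Benjamini-Hochberg adjusted p of 0.05, where 70.2% of the 8802 tested genes were called higher and 0.239% lower. The share of copies called higher was below this background as deposited, and above the background of 17.0% after median-of-ratios scaling. With 6 copies, 3 of them nearly equal in every library, nothing is read from this share. The limma adjusted p was 0.000135 for Amy2a5 and 1.87e-05 for Amy2b, and both take the listed zeros as measured values. With a pseudocount of 1 added before the division by 100000, Amy2a5 was not called (limma adjusted p = 0.0563). All 6 copies passed the filter on low values, a mean level of at least 1 over the 6 libraries. Amy1 had a log2 change of -0.95 ± 0.74 (SE; limma adjusted p = 0.25), which was -0.35 without WT replicate 2 and -1.56 without WT replicate 1, with no call in either case. Amy2a2, Amy2a3 and Amy2a4 had log2 changes of -0.11, -0.11 and -0.11 (limma adjusted p = 0.867, 0.862 and 0.865), beside a median of 1.22 over all tested genes. Without WT replicate 2 the changes of these 3 copies became 0.60, 0.59 and 0.60, and without Ela1-Myc replicate 2 they became 0.07 each, with no call in either case.

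The comparison depends on how the libraries are scaled. Median-of-ratios scaling, which equalises the libraries on the symbols above 0 in all 6, moved the median gene to 0.22. After it Amy1 was called lower, with a log2 change of -2.42 ± 0.43 (SE; limma adjusted p = 0.0112), Amy2a5 and Amy2b were still called higher (limma adjusted p = 0.0211 and 0.00549), and Amy2a2, Amy2a3 and Amy2a4 were not called at -1.39, -1.40 and -1.39 (limma adjusted p = 0.0805, 0.0798 and 0.0801). Thus 2 of 6 copies were called higher and 1 lower, where 17.0% of the tested genes were called higher and 7.08% lower. By range alone, 2 copies lay above all WT libraries on both scales (75.3% of tested genes as deposited, 28.9% after scaling), and below them lay 0 copies as deposited (0.534%) and 4 after scaling (17.2%). The scaled call of Amy1 was lost without Ela1-Myc replicate 2 or 3 (limma adjusted p = 0.0592 and 0.0532), and that of Amy2a5 without WT replicate 3 (0.0545) or Ela1-Myc replicate 1, 2 or 3 (0.0665, 0.0915 and 0.0836). Without WT replicate 3, Amy2a2, Amy2a3 and Amy2a4 were called lower after scaling, each at -1.90 (limma adjusted p between 0.02429 and 0.02435). Amy2b kept its scaled call without any single library (limma adjusted p between 0.000253 and 0.0371).

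**Figure D4:**
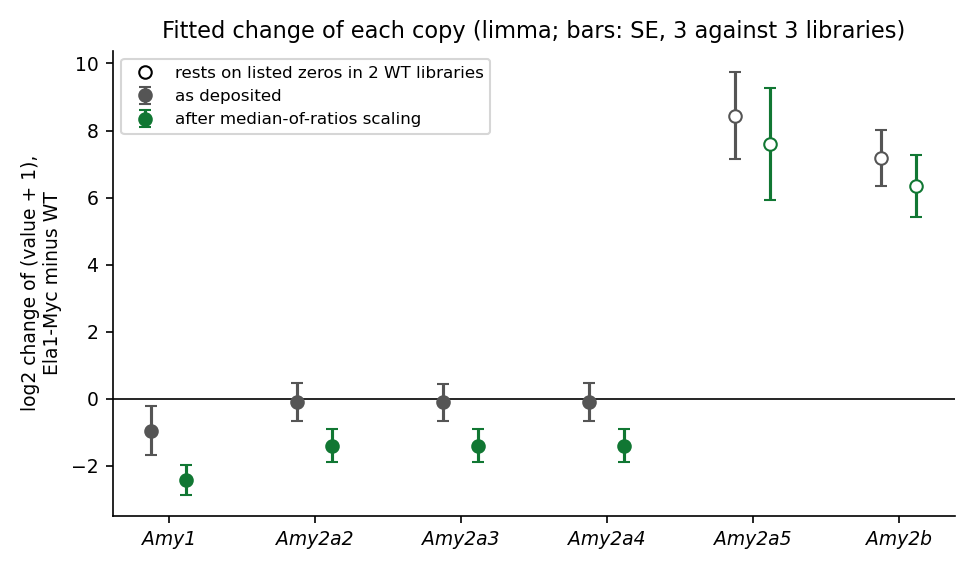
Fitted log2 change of (level + 1), Ela1-Myc minus WT, with its standard error from limma over 3 against 3 libraries, as deposited (grey) and after median-of-ratios scaling (green). Open circles mark Amy2a5 and Amy2b, whose WT values include listed zeros; Amy1 moves from -0.95 to -2.42 with the scale, and the 3 copies Amy2a2 to Amy2a4 from -0.11 to about -1.39.

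Set against the other digestive enzymes of the same library, Amy1 did not separate the groups, while Amy2a5 and Amy2b did. The ratio to the other enzymes does not move with the scale of a library. The denominator was the sum of 28 other enzymes and granule proteins of the acinar cell, which took 89.6% ± 0.247 of all values in the WT libraries against 66.5% ± 6.30 in the Ela1-Myc libraries (SD, n = 3 each). Per 1000000 of that sum, Amy1 stood at 29.2, 56.3 and 41.4 in WT, against 31.3, 44.8 and 47.3 in Ela1-Myc, with group means of 42.3 ± 13.6 and 41.1 ± 8.62 (SD, n = 3 each; exact two-sided permutation p = 1). Amy2a2 to Amy2a4 together stood at 22.7, 32.6 and 8.12 in WT, against 25.8, 35.8 and 41.2 in Ela1-Myc (by an exact two-sided permutation test, p = 0.2). Neither result shows that the groups are alike, since 3 libraries a group leave a wide spread. On the same scale Amy2a5 was at 40.3 in WT replicate 2, while the Ela1-Myc libraries had 2131, 3794 and 2474. Amy2b was at 4.84 in WT replicate 2, while the Ela1-Myc libraries had 426.0, 791.4 and 549.4. All 6 copies together came to 51.9, 134.1 and 49.6 in WT, against 2615, 4666 and 3112 in Ela1-Myc (by an exact two-sided permutation test, p = 0.1).

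**Figure D5:**
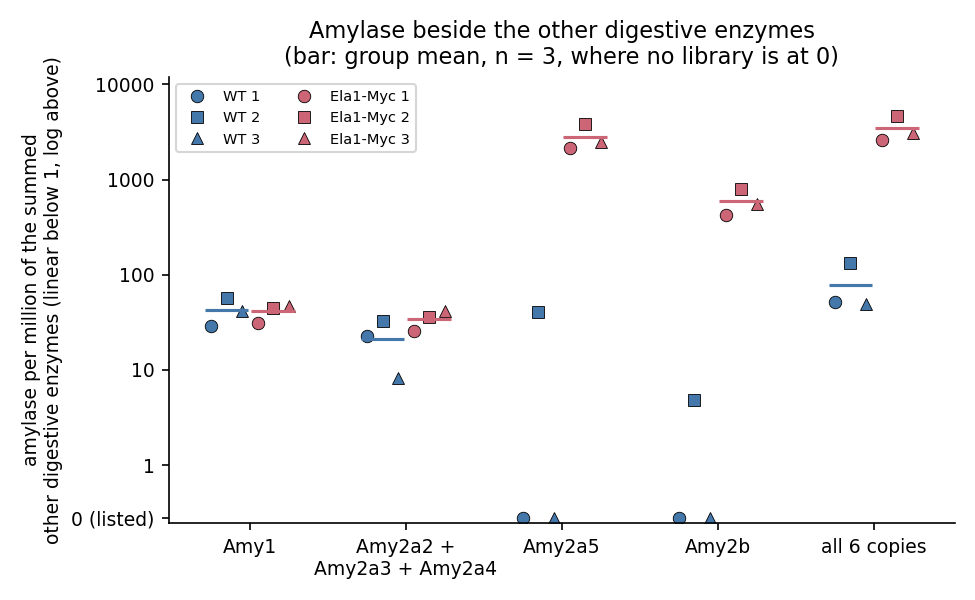
Summed level of each copy or set of copies per 1000000 of the summed levels of 28 other digestive enzymes and granule proteins in the same library (linear below 1 and logarithmic above); bars are group means of 3, drawn only where no library of the group is listed at 0. Amy1 and Amy2a2 to Amy2a4 overlap between the groups, and Amy2a5, Amy2b and the sum of all 6 copies do not.

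Of the 27 tested members of that enzyme list, 12 were called lower and 2 higher as deposited (median log2 change -1.10). After scaling, 24 were called lower and 1 higher (median -2.64). Of all tested genes, 0.239% were called lower and 70.2% higher as deposited, and 7.08% lower and 17.0% higher after scaling. The median log2 change over all tested genes was 1.22 as deposited and 0.22 after scaling. The 2 list members called higher as deposited were the trypsinogen copies Prss1 and Prss3, which like Amy2a5 and Amy2b were listed at 0 in WT replicates 1 and 3. Prss1 had a level of 736.2 in WT replicate 2 and of 4098, 4426 and 2766 in Ela1-Myc, and Prss3 of 329.8 and of 8787, 3458 and 2589. These zeros are not particular to amylase. In all, 415 tested genes (4.71%) were at 0 in WT replicates 1 and 3 and above 0 in the other 4 libraries, and 13 of them had an Ela1-Myc mean at or above that of Amy2b, with Prss3, Gm10334, Prss1, Gm5771 and Amy2a5 at the top and Gapdh among the rest. Of the 159 tested genes at or above the Ela1-Myc mean of Amy2b, 40 (25.2%) were at 0 in at least 1 WT library.

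Genes that act on starch and glycogen elsewhere were mostly low. Of 7 genes for starch and sugar digestion at the gut wall, 1 reached the filter on low values, the fructose transporter Slc2a5, whose level was 4.96, 4.07 and 4.11 in Ela1-Myc against a listed 0 in each WT library. Slc2a5 passed the filter only through its Ela1-Myc levels, so its difference was set by the filter and no test is given. The brush border glucosidase Mgam, which continues the digestion that amylase starts, was at most 0.434. Of 9 genes for glycogen and glucan breakdown inside cells, 6 were tested, 5 were called higher and 0 lower as deposited, and 1 higher and 0 lower after scaling, beside 70.2% and 17.0% of all tested genes called higher, so that nothing is read from these counts. The glycogen phosphorylase Pygb had a level of 0.521, 1.55 and 0.348 in WT and of 6.18, 9.13 and 9.21 in Ela1-Myc. Pygb and its liver counterpart Pygl reached the filter only through their Ela1-Myc levels. Both are among the 5 called higher as deposited, and Pygb is the 1 called higher after scaling. Those calls were helped by the filter and are not read as results. The lysosomal glucosidase Gaa, at 2.78, 3.67 and 1.49 in WT, against 14.9, 10.4 and 11.3 in Ela1-Myc, was called as deposited (limma adjusted p = 0.00181) and not after scaling (0.244).

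Transcription factors of the acinar cell, which bind enzyme gene promoters, gave 4 higher and 0 lower of 10 as deposited, where 70.2% of all tested genes were called higher, and 1 higher and 4 lower after scaling, where 17.0% were called higher and 7.08% lower. The 4 called higher as deposited were the Notch pathway factor Rbpj, the E-proteins Tcf3 and Tcf12, which pair with Ptf1a, and Gata4, all named here after their values were seen. Tcf3 was the 1 called higher after scaling, with a level of 0.245, 0.445 and 0.147 in WT and of 3.45, 3.90 and 5.41 in Ela1-Myc, and it passed the filter only through the latter. Ptf1a, the master factor of acinar fate, had a level of 9.23, 26.5 and 20.3 in WT and of 35.5, 11.5 and 17.0 in Ela1-Myc, without a call on either scale (limma adjusted p = 0.835, and 0.0842 after scaling). Its partner Rbpjl had 23.6, 62.2 and 30.3 in WT and 43.6, 24.6 and 30.2 in Ela1-Myc and was called lower only after scaling (limma adjusted p = 0.844, and 0.0243 after scaling). Bhlha15, which organises the secretory apparatus, was likewise called lower only after scaling (limma adjusted p = 0.782, and 0.0191 after scaling). Nr5a2, a nuclear receptor that acts with the PTF1 complex, was not called on either scale (limma adjusted p = 0.308, and 0.167 after scaling).

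Beyond the cluster, the nearest gene with a row within 1 Mb was Rnpc3, which encodes a protein of the minor spliceosome and lies at 113605067 to 113630149 beside Amy1. Its level was 0.176, 0.683 and 0.514 in WT and 1.17, 1.39 and 2.05 in Ela1-Myc, and its mean was below the filter. The collagen gene Col11a1, at 114030540 to 114220326, was listed at 0 in WT and stood at 0.0713, 0.0213 and 0.103 in Ela1-Myc. No gene with a row lay within 1 Mb on the Amy2b side.

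Markers of other cells were summed beside the amylase values. The salivary gland markers cannot be read: all 9 are listed at 0 in the 3 Ela1-Myc libraries, and in each WT library all 9 have the value that 4462 or 4463 rows share (0.00464, 0.00823 and 0.00174 in replicates 1 to 3). For the 6 hepatocyte markers the summed level was 4.46 to 17.3 in WT and 21.6 to 25.1 in Ela1-Myc, most of it Ttr, which islets also express. Of the 3 tested, 2 were called higher as deposited and 0 after scaling. Those 2, Alb and Ahsg, reached the filter only through their Ela1-Myc levels, and Ttr was not called on either scale. Islet markers (7 of 7 tested, 6 called higher and 2 after scaling) summed to 0, 2476 and 391.0 in WT replicates 1 to 3 and to 2443, 2860 and 3358 in Ela1-Myc, with WT replicate 2 above Ela1-Myc replicate 1. Leukocyte markers (7 of 7 tested, 7 called higher and 2 after scaling) summed to 55.3, 42.4 and 0 in WT, against 234.0, 867.4 and 598.7 in Ela1-Myc. Duct markers summed to 73.3 to 205.6 in WT and 186.5 to 344.2 in Ela1-Myc, fibroblast and stellate cell markers to 45.3 to 93.8 and 302.7 to 463.3, adipocyte markers to 15.04 to 111.2 and 83.7 to 242.3, and endothelial markers to 9.39 to 13.8 and 21.3 to 27.7. As deposited, the sums of the groups overlapped for islet, duct and adipocyte markers and did not for the hepatocyte, leukocyte, fibroblast and stellate cell, and endothelial markers. Of all tested genes, 75.3% had every Ela1-Myc library above every WT library as deposited, and 28.9% after scaling. The sums were not compared after scaling. The median log2 change of the tested markers was then 0.63 for hepatocyte, 2.02 for leukocyte, 2.29 for fibroblast and stellate cell, and -0.27 for endothelial markers. The counts of markers called stand beside 70.2% of all tested genes called higher as deposited and 17.0% after scaling. The counts and medians include markers that reached the filter only through their Ela1-Myc levels, among them Alb, Ahsg and Cd68. Nothing is read from these counts and medians. The part of these cells in the amylase values was not tested. The part of RNA quality in them was not tested either. The RNA integrity number was 8.8, 7.2 and 8.3 in Ela1-Myc replicates 1 to 3, against 7.1 to 7.3 in WT. The Amy2a5 level in those Ela1-Myc libraries was 1665, 1421 and 1278.5.

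Among 6991 tested genes above 0 in all 6 libraries, those whose log2(level + 1) ran most nearly parallel to the amylase sum over the 6 libraries were Zdhhc16, Rce1, Snhg12, Cuedc2 and Gle1, with Pearson's r between 0.9986 and 0.9994. By the smallest root mean square difference of centred values, between 0.631 and 0.645 log2 units, they were Mif, Gpi1, Cct2, Rps2 and Capns1. For Amy1 alone, looked up after its values had been seen, the highest r, between 0.989 and 0.996, belonged to Klb, 1810019J16Rik, Ptprn2, Sord and Camk2b. All of these points share the same 6 libraries and their scale, and the tested genes were mostly higher in Ela1-Myc, so the coefficients describe the libraries and carry no test.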

How the data were processed

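Pancreas RNA of 3 WT and 3 Ela1-Myc libraries was analysed. The authors deposited 1 adjusted FPKM value per gene and library, per the file headers. The submitters' processing notes name TopHat2 2.0.4 with Bowtie, Cufflinks 2.0.2, the affy package, CASAVA 1.8, FastQC 0.9.4 and the build GRCm38 (mm10). The sources used here do not say what the adjustment was, though the labels record spike-in RNA. All values were divided by 100000, and of 23422 rows the highest-mean row was kept for the 187 symbols with several. The test across genes was limma (version 3.58.1, R 4.3.3) with its trend option, fitted to log2(value + 1) of the 8802 genes whose mean reached 1 and Benjamini-Hochberg adjusted. This scale understates changes of low genes. The script was tested on simulated data. Single values were compared by exact two-sided permutation. Coding sequences came from GENCODE M21 and were aligned with edlib 1.3.9.post1; 6 of 6 copies matched RefSeq promoters by symbol. Figures used matplotlib 3.10.9. No protein sequences were used here. The fibroblast marker Pdgfrb was not analysed here, and Cela3a and Adgre1 were matched through synonyms. Named genes were all 6 copies, Myc, list members with the highest means, the 4 acinar factors, neighbours within 1 Mb and the genes most like the amylase sum; Ctrb1, Gapdh, Prss1, Prss3, Pygb, Pygl, Gaa, Mgam, Rbpj, Tcf3, Tcf12, Gata4 and the genes with the same zeros were singled out after their values were seen. The members, lists and tests were chosen with earlier results of these data known. Alternatives changed the scaling, pseudocount, filter, repeated rows, denominators and libraries.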

Additional observations from a re-analysis of the deposited data

How the results depend on the processing

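Across all genes the calls depended on the scale: 6182 higher and 21 lower as deposited, 1495 and 623 after median-of-ratios scaling, 938 and 1371 after quantile normalization, 2185 and 323 with the enzymes left out of the library total, and 3369 and 6 with a pseudocount of 1 on the deposited scale. Leaving out single libraries gave 3937 to 7441 higher and 4 to 67 lower. Copies called lower numbered 0 as deposited, 1 after median-of-ratios scaling (Amy1), 4 after quantile normalization and 1 with the enzymes left out of the total; copies called higher numbered 2, and 1 with a pseudocount of 1 on the deposited scale, where Amy2a5 missed the threshold (limma adjusted p = 0.0563). The 4 called lower after quantile normalization include Amy2a2, Amy2a3 and Amy2a4. The copies called lower stand beside 1371 of 8802 tested genes called lower after quantile normalization and 323 with the enzymes left out. Nothing is read from these numbers of copies. Single libraries left out changed neither the number of copies called lower nor that called higher as deposited. The log2 changes of Amy2a2, Amy2a3 and Amy2a4 ranged from -0.59, -0.59 and -0.59 to 0.60, 0.59 and 0.60 without single libraries; without WT replicate 2 they were 0.598, 0.594 and 0.596 and without Ela1-Myc replicate 2 0.0733, 0.0681 and 0.0692. The cause of these changes was not tested. The amylase sum differed by 4.60 log2 units as deposited, 3.08 after scaling and 3.48 with the enzymes left out, and by 3.998 to 5.43 without single libraries. Its log2 ratio to the other enzymes differed by 5.58 (5.33 to 6.05), its percentage of all symbols by 0.219 (0.193 to 0.238) and the share of Amy2a5 by 70.7 percentage points (65.7 to 80.8), each with the range without single libraries. Of 114 single-copy values under alternatives, 90 kept direction and side of the threshold, 5 lost a call, 13 gained one and 6 turned in sign. Amy2a2, Amy2a3 and Amy2a4 are nearly equal in every library, so these values are not independent of one another. All 6 turns in sign belong to those copies. Scaling together with a left-out library was chosen after seeing the data. No paired analysis was possible because the labels carry no replicate numbers shared between the groups. The unknown depth limits what a listed 0 means.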
